A study of Drosophila melanogaster with 5 samples.

Results

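The peaks described here are the listed H3K18ac peaks on chromosome 4 and in the pericentromeric part of 3 autosomal arms of Drosophila melanogaster. The rule uses position only, although the stretches were picked with earlier results of these data known: it takes every peak of the deposited table on chromosome 4, and every peak that starts in the innermost 5 Mb of the arms as assembled, 2L (after position 18513712 of dm6), 3L (after 23110227) and 3R (before 5000000). This gave 233 of the 2626 peaks in the table, 67 on chromosome 4, 87 on 2L, 41 on 3L and 38 on 3R. The 5 Mb limit is a fixed distance and not a mapped edge of heterochromatin, so a peak in a stretch need not lie in heterochromatin.

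H3K18ac, the acetylation of lysine 18 on histone H3, marks active promoters and enhancers, and in flies it is placed by the CBP homologue Nejire. Pericentromeric chromatin is rich in transposable elements and carries HP1a and methylated H3K9, but it also holds genes that are transcribed there, among them light and several ribosomal protein genes. Chromosome 4, the small dot chromosome, is a mixture of the same heterochromatin marks and active genes.

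Wing discs, the larval epithelia that give rise to the adult wing and notum, came from w1118 larvae of both sexes in the third instar. The study asked which H3K18ac peaks depend on fatty acid oxidation, which etomoxir blocks by inhibiting carnitine palmitoyltransferase 1. The control group had 3 libraries, 1 of discs dissected directly and 2 of discs cultured for 2 h without drug, and the etomoxir group had 2 libraries of discs cultured for 2 h with 500 µM etomoxir. Chromatin was profiled by Cut&Run, in which an antibody tethers a nuclease to the mark and the released fragments are sequenced, and whole discs were used, so regions of the disc were not separated.

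The table lists only peaks with an FDR below 0.05 in the authors' comparison, and it gives one value per group, the log2 mean normalized read count of the peak, with none per library. Every difference below is the etomoxir group value minus the control group value on that log2 scale, so 1 is a doubling of the normalized value. It has no replicate error, SD or test. Whether the added yeast spike-in DNA scaled the counts is not given, so higher and lower hold relative to this normalization. They need not be changes in the absolute amount of the mark. In the paper's stainings H3K18ac fell in the disc rim with etomoxir. Intervals are exact 95% intervals over peaks or order-statistic intervals of a median, and they cover counting error over peaks only. In all listed peaks the overall value equalled the mean over the 5 libraries within 0.02, so the directly dissected discs are part of the control value, and culture and drug cannot be told apart by it. The depth of each library is not held in the table. The study's reporting summary lists far more unique reads for 1 cultured control than for any other library, and its weight in the control value could not be checked. Peaks that did not change are not listed. For that reason the tissue label was not checked against marker genes.

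The central 300 bases of the peaks with the largest increase and the largest decrease in each stretch are printed here as examples of the extremes. They were read from the plus strand of the RefSeq copy of dm6, and capitals mark bases that RefSeq masks as repeats. No peak of the 3L stretch was lower, so 3L has one sequence, and for 2L the increase alone is shown.
4E-T (chr4:957668-957967): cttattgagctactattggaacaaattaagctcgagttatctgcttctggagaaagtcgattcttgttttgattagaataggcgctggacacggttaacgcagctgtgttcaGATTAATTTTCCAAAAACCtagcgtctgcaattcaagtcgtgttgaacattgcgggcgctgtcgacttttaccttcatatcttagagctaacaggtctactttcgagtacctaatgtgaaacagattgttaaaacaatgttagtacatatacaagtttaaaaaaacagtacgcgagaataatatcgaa
zfh2 (chr4:507339-507638): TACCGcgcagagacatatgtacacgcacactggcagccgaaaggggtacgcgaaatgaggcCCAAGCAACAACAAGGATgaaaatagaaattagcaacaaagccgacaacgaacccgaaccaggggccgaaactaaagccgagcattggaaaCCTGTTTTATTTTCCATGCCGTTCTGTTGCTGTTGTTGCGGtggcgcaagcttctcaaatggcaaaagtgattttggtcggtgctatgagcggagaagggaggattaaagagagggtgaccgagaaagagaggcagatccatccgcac
CG1416 (chr2L:21758436-21758735): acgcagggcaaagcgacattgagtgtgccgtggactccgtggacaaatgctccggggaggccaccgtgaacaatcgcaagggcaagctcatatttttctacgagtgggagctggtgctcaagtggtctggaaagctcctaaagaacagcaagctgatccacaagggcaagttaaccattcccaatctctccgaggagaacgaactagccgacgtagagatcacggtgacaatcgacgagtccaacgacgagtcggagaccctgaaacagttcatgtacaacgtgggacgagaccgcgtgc
snoRNA:Me18S-C419 (chr3L:27267527-27267826): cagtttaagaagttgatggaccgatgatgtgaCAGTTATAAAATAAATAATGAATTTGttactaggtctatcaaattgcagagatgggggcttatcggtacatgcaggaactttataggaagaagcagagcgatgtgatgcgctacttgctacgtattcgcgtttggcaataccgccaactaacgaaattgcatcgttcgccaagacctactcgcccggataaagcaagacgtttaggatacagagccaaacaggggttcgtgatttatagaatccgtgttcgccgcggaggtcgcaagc
CG42402 (chr3R:4087449-4087748): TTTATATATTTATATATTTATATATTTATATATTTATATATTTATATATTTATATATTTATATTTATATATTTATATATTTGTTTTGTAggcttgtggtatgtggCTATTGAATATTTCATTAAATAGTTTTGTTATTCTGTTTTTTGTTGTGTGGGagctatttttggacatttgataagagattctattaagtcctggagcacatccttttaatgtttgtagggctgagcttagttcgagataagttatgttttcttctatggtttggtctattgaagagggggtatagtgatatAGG
lncRNA:CR44157 (chr3R:4667909-4668208): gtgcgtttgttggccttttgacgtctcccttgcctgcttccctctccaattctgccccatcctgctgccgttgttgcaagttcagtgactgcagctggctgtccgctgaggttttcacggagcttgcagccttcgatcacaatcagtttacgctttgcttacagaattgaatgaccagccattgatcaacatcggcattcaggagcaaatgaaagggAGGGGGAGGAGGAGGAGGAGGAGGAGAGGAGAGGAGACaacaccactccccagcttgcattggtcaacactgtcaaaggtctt
The 2 windows with the largest increases on 2L and 3L held 0 and 26 masked bases, and CG42402 on 3R held 144 of 300, most of them an AT repeat. GC content in these windows ran from 25.3% at CG42402 to 54.3% at CG1416. These 6 windows were extremes of the stretches, and the typical peak of each direction is described further on.

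A second set shows examples of short motifs, chosen because they hold a match. The first 4 windows hold TATCGATA, the DNA replication-related element that is frequent in promoters of general cell function genes, in peaks that were higher after etomoxir, and the last 3 hold GAGAGAG, the repeat bound by GAGA factor and Clamp, in peaks that were lower. In each stretch the match nearest a peak centre was taken after the values were seen, with 30 bases on each side and the motif, on either strand, in capitals.
Crk (chr4:210220-210287): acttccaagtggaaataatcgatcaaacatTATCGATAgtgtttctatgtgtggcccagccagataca
swm (chr2L:19493200-19493267): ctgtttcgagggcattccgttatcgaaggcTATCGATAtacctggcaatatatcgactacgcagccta
mRpS5 (chr3L:24536149-24536216): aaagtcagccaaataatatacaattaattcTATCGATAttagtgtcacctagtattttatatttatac
Tim17b (chr3R:3734164-3734231): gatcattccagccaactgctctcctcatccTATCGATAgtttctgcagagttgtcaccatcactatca
zfh2 (chr4:507608-507674): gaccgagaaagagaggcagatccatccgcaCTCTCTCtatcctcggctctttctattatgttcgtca
tsh (chr2L:21828504-21828570): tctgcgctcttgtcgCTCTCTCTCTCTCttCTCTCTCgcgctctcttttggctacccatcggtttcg
tacc (chr3R:4739670-4739736): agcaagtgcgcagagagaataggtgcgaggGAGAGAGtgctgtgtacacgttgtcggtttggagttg

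The members were higher after etomoxir more often than the table as a whole. Of the 233 members, 145 were higher after etomoxir and 88 lower, or 62.2% higher (95% interval 55.7 to 68.5), where 16.5% of all listed peaks were higher. Outside the 4 stretches 287 of 2393 listed peaks were higher, or 12% (10.7 to 13.4). These other peaks include the centromeric end of 2R, which the rule left out and which went the same way as the members. In the first 5 Mb of 2R all 66 of 66 listed peaks were higher (94.6 to 100), and without them 221 of 2327 other peaks were (9.50%, 8.34 to 10.8). Those 2327 peaks, used below as the set without proximal 2R, still hold the Mb from 5 to 6 of 2R. There 44 of 49 peaks were higher. The direction is thus shared with proximal 2R and not particular to the 4 stretches.

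The 4 stretches did not behave alike. On chromosome 4, 55 of 67 peaks were higher, or 82.1% (70.8 to 90.4). In the 3L stretch all 41 of 41 were higher (91.4 to 100). The 3R stretch had 22 of 38 higher, or 57.9% (40.8 to 73.7), an interval that takes in an even split. The 2L stretch had 27 of 87 higher, or 31.0% (21.6 to 41.9), so most of its peaks were lower.

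Each of the 3 arm stretches stood above the rest of its own arm. On the rest of 2L 6.33% of 395 listed peaks were higher, on the rest of 3L 10.5% of 515, and on the rest of 3R 5.46% of 531. The rule left out the centromeric ends of 2R and X. Proximal 2R, at 66 of 66, was like the 3L stretch, and the rest of 2R had 17.0% of 501 higher. Within this rest, the block of higher peaks ran past the 5 Mb limit. From 5 to 6 Mb 44 of 49 peaks were higher, and from 6 to 7 Mb 3 of 25. The last 5 Mb of X had 3 of 46 peaks higher, or 6.52% (1.37 to 17.9), which lay with the rest of the arms.

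**Figure D1:**
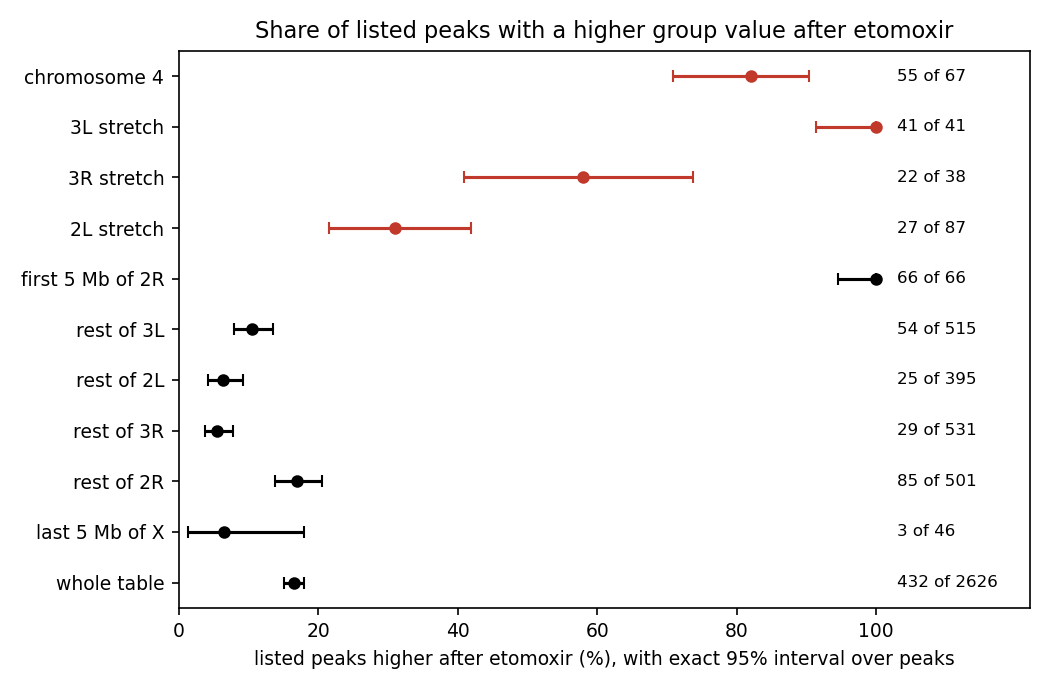
Percentage of listed peaks with a higher group value after etomoxir (x axis, 0 to 100%) in each stretch (red) and in comparison regions (black), with exact 95% intervals over peaks and the counts at the right. The 4 stretches lie at 31.0 to 100% and the first 5 Mb of 2R at 100%, against 5.46 to 17.0% in the rest of the arms, the last 5 Mb of X and the whole table.

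The increases of the members had lower medians than those on the rest of the same arms. The median difference of the higher members was 0.94 (0.90 to 1.0), with 1.0 on chromosome 4, 0.90 on 2L, 0.92 on 3L and 0.94 on 3R, against 1.05 for higher peaks outside the stretches. On the rest of the arms it was 1.25 for 2L (0.89 to 1.57), 1.48 for 3L (1.05 to 1.95) and 1.22 for 3R (0.97 to 1.89), and in the first 5 Mb of 2R it was 0.92. The interval of the 3L stretch, 0.86 to 1.03, lay below that of the rest of 3L, while those of 2L and 3R overlapped the rest of their arms. The differences of the higher members ran from 0.41 at Cht10, a chitinase gene, to 2.29 at CG1416. The median of the lower members was -1.08 (-1.21 to -0.96), against -1.2 for lower peaks outside. A difference of at least 1, a doubling, was reached by 62 of the 145 higher members (42.8%), against 64.8 to 69.0% of the higher peaks on the rest of the 3 arms, and a halving or more by 52 of the 88 lower ones. On the rest of 2R the median was 0.97, and 49.4% of higher peaks reached a doubling. Higher members also had larger control values (median 7.1) than higher peaks on the rest of 2L (5.94), 3L (6.2) and 3R (5.59). All listed peaks had passed an FDR limit, and the part of read level in these sizes was not tested.

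**Figure D2:**
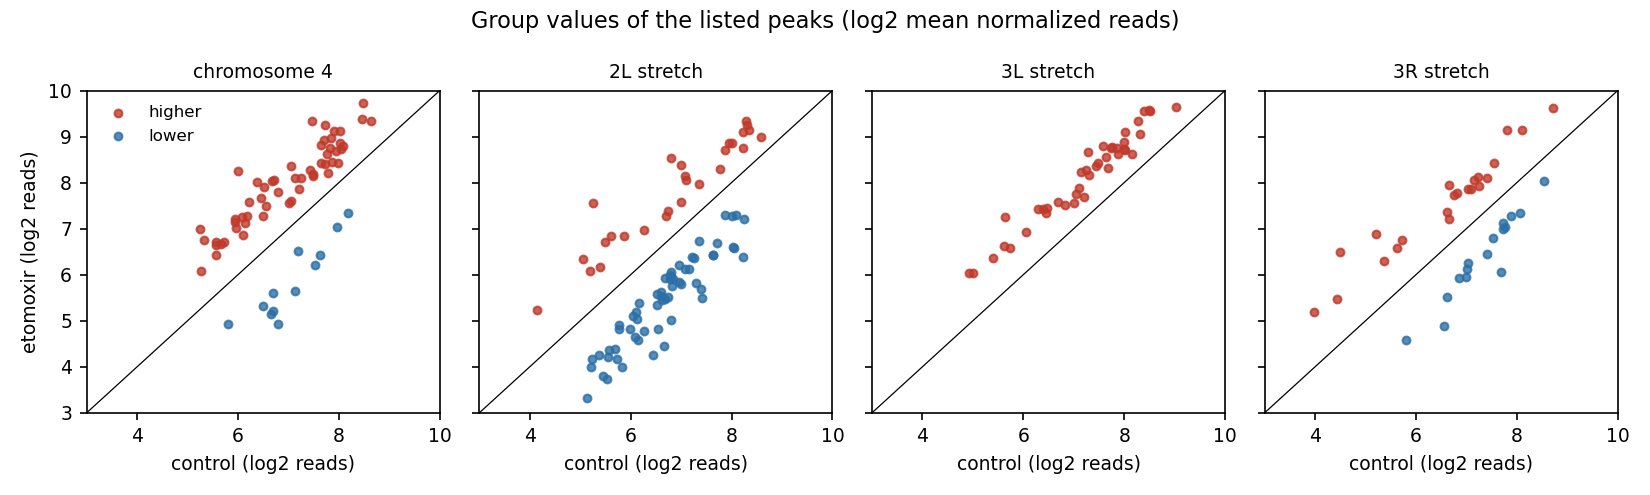
Etomoxir group value against control group value of each listed peak (log2 mean normalized reads; the line marks equality), one panel per stretch, with red points higher and blue points lower after etomoxir. The 3L panel holds no point below the line, and the higher members span control values from 3.97 to 9.03.

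Along the chromosomes the 2 directions lay in blocks. The last Mb of 2L held 17 listed peaks and the last Mb of 3L held 9, and all of these were higher. On 2L the last lower peak was at tio, 1.5 Mb from the arm end. The 22 peaks beyond it, all higher by that definition, had differences from 0.41 to 1.74. Of the 65 peaks up to and including the tio peak, 5 were higher. On 3R no peak was listed in the first 3 Mb, and the first lower peak was at CG42402. The 18 peaks before it, all higher by that definition, had differences from 0.67 to 1.35, and 4 of the 20 from that peak on were higher. On 3L the last lower peak of the arm, at Mes2, lay 5.16 Mb from the end, just outside the stretch, and all 44 listed peaks beyond it were higher, 41 of them members. These bounding peaks were picked as the last or first lower ones after the values were seen. That every peak on their centromeric side was higher follows from this choice.

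**Figure D3:**
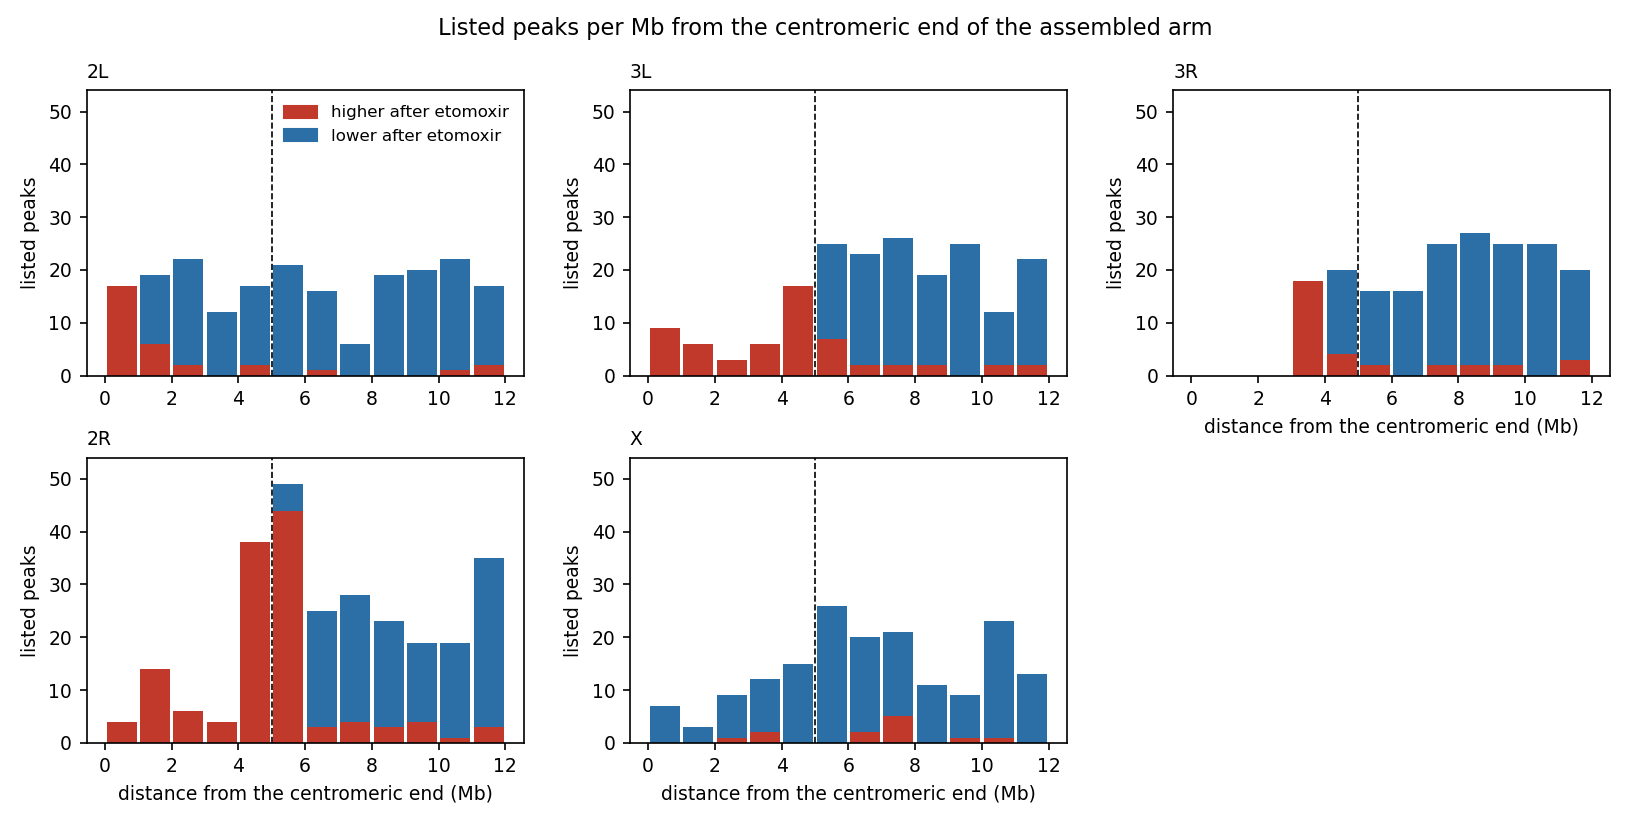
Listed peaks in each Mb (y axis) by distance from the centromeric end of the assembled arm (x axis, Mb) on 2L, 3L, 3R, 2R and X, with higher peaks in red, lower peaks in blue and a dashed line at the 5 Mb limit. Red fills the innermost occupied bins of 2L, 3L, 3R and 2R, while the innermost Mb of X has 7 lower peaks and no higher one.

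Chromosome 4 was mostly higher but held 3 islands of lower peaks. Read along the chromosome, its 67 peaks formed 6 runs of one direction, with 2 lower peaks at ci, 22 higher from RpS3A to CG33941, 7 lower at Asator and zfh2, 11 higher from Pur-alpha to MED26, 3 lower at Sox102F and 22 higher from Gyf to Dyrk3. All 12 lower peaks thus belonged to 4 genes.

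Of these 4 genes, 3 encode transcription factors. zfh2, a zinc-finger homeodomain gene expressed in the wing hinge, had 6 peaks, 1 at its promoter and 5 in introns, more than any other gene of the chromosome. Its promoter peak went from a control value of 6.69 to 5.22 (difference -1.47), and its intron peaks had differences of -1.86, -1.18, -1.32, -1.48 and -1.19. The largest decrease on the chromosome was the intron peak at chr4:507078-507898, from 6.79 to 4.93. That peak is the source of the zfh2 sequences shown above, with the GAGAGAG match 153 bases from its centre. All 6 peaks of zfh2 therefore went the same way.

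ci encodes the transcription factor of Hedgehog signalling, which patterns the wing disc. Its promoter peak went from 6.65 to 5.15 (-1.50) and a second peak upstream of the start from 8.18 to 7.34 (-0.84). Sox102F, a SoxD transcription factor gene, had differences of -0.67 and -0.93 at promoter peaks and -0.86 in an intron. The peak assigned to Asator, a gene of the tau tubulin kinase family, lay upstream of its start, at a distance of -1543 bases, and went from 6.69 to 5.61 (-1.08). It lay next to the zfh2 run on the chromosome.

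The other regulators and signalling genes of chromosome 4 did not share that direction. Of 24 such genes on the list, 7 had higher peaks, 3 had lower peaks (ci, zfh2 and Sox102F) and 14 had none listed, among them ey, toy, pan and sv. Over all 80 protein-coding genes of the chromosome, 46.3% had a higher and 5.0% a lower listed peak. onecut, a homeodomain gene, went from 8.48 to 9.73 (1.25). Its neighbour Eph, an ephrin receptor gene, went from 5.94 to 7.21 (1.27), and Crk, an adaptor of receptor tyrosine kinases, from 6.71 to 8.05 (1.34). The 2 peaks of pho, a Polycomb group DNA-binding protein gene, differed by 0.86 and 1.21, and those of gw, which encodes the GW182 protein of microRNA silencing, by 0.79 and 1.31. PlexA, a semaphorin receptor gene, differed by 0.93, and Mitf, a regulator of lysosomal genes, by 0.59 and 0.87. The median over the 10 higher peaks of the list was 1.07, against 1.0 for all higher listed peaks.

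Of the 14 list genes of general cell functions found on chromosome 4, 10 had higher peaks, 1 a lower peak (Asator) and 3 none (Rad23, Slip1 and Hcf), beside 37 of all 80 protein-coding genes with a higher peak. Higher peaks were the usual state of listed genes there, with 42 of 46 higher, and the count is not particular to this group. The ribosomal protein gene RpS3A went from 6.07 to 7.26 (1.19) and ND-49, a subunit of respiratory complex I, from 6.46 to 7.66 (1.2). ATPsynbeta, the beta subunit of ATP synthase, went from 6.09 to 6.87 (0.78). The 2 peaks of eIF4G1, a translation initiation factor gene, differed by 0.70 and 0.94, and those of PMCA, a calcium pump gene, by 1.05 and 0.99. Zip102B, of the zinc transporter family, differed by 1.43, PIP4K, a phosphoinositide kinase, by 1.09, CaMKI by 0.93, Pur-alpha by 0.82 and Dyrk3 by 0.71. Their 12 higher peaks had a median difference of 0.97, close to the 1.0 of all higher listed peaks.

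Of 8 neural and muscle genes found on the chromosome, 4 had higher peaks, none had a lower one and 4 had none listed, near the 46.3% with a higher peak over the whole chromosome. Ank, an ankyrin gene, differed by 1.17, Syt7, a synaptotagmin gene, by 0.87 and 1.08, unc-13, a gene of synaptic vesicle priming, by 0.70, and mGluR, a glutamate receptor gene, by 0.54. The last peak was annotated in a 3' UTR and not at the promoter.

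The largest increases on chromosome 4 were at 4E-T, lncRNA:CR44441 and Arl4. The promoter peak of 4E-T, which encodes a binding partner of the cap-binding factor eIF4E, went from 6.0 to 8.25, a 4.76-fold difference of the group values, and is the 4E-T sequence shown above. The lncRNA:CR44441 peak went from 7.46 to 9.34 (1.88). The peak upstream of Arl4, an Arf-like GTPase gene, went from 5.25 to 7.0 (1.75) and lay wholly in an annotated transposable element, while the peak over the Arl4 start went from 8.03 to 9.11 (1.08).

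**Figure D4:**
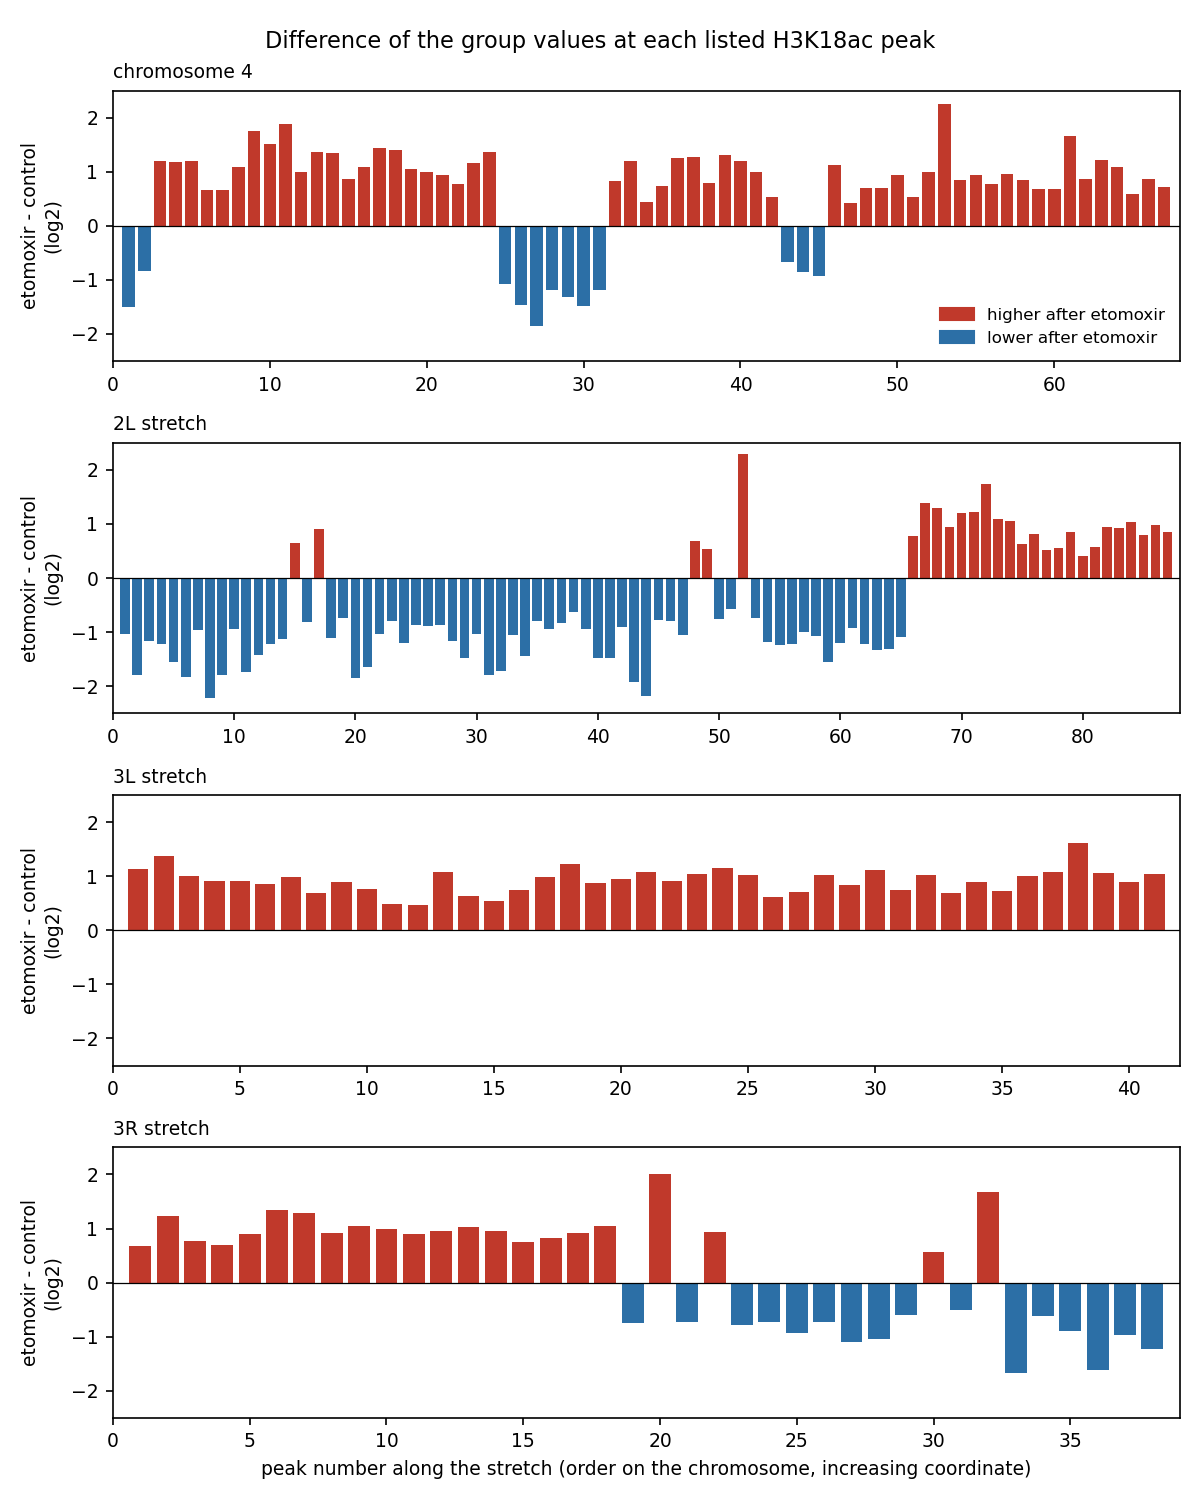
Difference of the group values (y axis, etomoxir minus control, log2) at each listed peak in its order along the stretch (x axis), with red bars higher and blue bars lower after etomoxir. Chromosome 4 shows 3 islands of lower peaks (2, 7 and 3), 2L turns from mostly lower to higher for its last 22 peaks, 3L is higher throughout and 3R opens with 18 higher peaks.

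In the 2L stretch the 60 lower peaks covered most of the distal part. The largest decreases were at lncRNA:CR44740, from 6.67 to 4.45 (-2.22), and at 2 peaks of CG42238, from 6.44 to 4.26 (-2.18) and from 7.41 to 5.49 (-1.92). CG42238 had 5 peaks, the most of any gene of the stretch, and all were lower. On the list of developmental genes of the proximal arms, 18 of 19 genes lay in the stretches, 5 had lower peaks, 1 had a higher peak and 12 had none listed. Over all protein-coding genes, 5.23% had a lower peak in the 2L stretch, 9.80% in the 3R stretch and 7.98% in the whole genome. This list too was chosen with results of these data known, so its count is no result about developmental genes. The promoter peak of spi, the main EGF receptor ligand of the fly, went from 8.23 to 6.39 (-1.84), and a smaller peak upstream of it from 5.45 to 3.80 (-1.65). brat, a translational repressor and growth suppressor gene, differed by -1.73 at an intron peak, tsh, a zinc-finger gene of the proximal wing, by -1.23 and -1.22, its paralogue tio by -1.09, and crc, the fly ATF4, by -0.58. The tsh promoter window printed above holds 5 overlapping or adjacent GAGAGAG matches. The higher gene of the list was alpha-Cat, the adherens junction protein gene, at 0.69, and it lies in the 3L stretch.

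The 22 higher peaks at the centromeric end of 2L lay mostly at annotated promoters. CG17490 went from 6.80 to 8.54 (1.74) and Clamp, a GA-repeat binding protein of dosage compensation, from 6.99 to 8.38 (1.39). RpL5, a ribosomal protein gene, went from 5.62 to 6.84 (1.22) and lt, a gene of vesicle transport to lysosomes, from 7.77 to 8.29 (0.52). The 2 peaks of cta, a G protein alpha subunit gene, differed by 0.56 and 0.85. The last listed peak of the arm was at Tim23, a subunit of the mitochondrial import channel, and went from 8.23 to 9.09 (0.86).

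Among the 65 peaks from the outer limit up to tio, the 5 higher ones stood alone or in a pair. They were assigned to CG31798 (0.65), swm (0.90), Mcm10 (0.69), CG31626 (0.53) and CG1416 (2.29), named after their values were seen. The CG1416 peak went from 5.26 to 7.55, a 4.89-fold difference and the largest increase of all members, while the next 2 peaks assigned to the same gene were lower, at -0.74 and -1.18. Those 2 peaks lie in an intron of CG31612, so the assigned gene is only the one with the nearest start.

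In the 3L stretch the 41 peaks belonged to 28 genes and differed by 0.46 to 1.62. The largest increase was the peak at snoRNA:Me18S-C419, from 5.64 to 7.26. That peak lies inside RpL15 (27267255 to 27268445), a ribosomal protein gene, and carries the snoRNA name only as the nearest start. Both peaks assigned to RpL15, upstream of it, went from 5.62 to 6.62 (1.0) and from 8.50 to 9.58 (1.08). CG33217 went from 7.29 to 8.66 (1.37) and CR12460 from 7.57 to 8.80 (1.23). Set1, an H3K4 methyltransferase gene, went from 8.52 to 9.56 (1.04) and Dbp80, a DEAD-box RNA helicase gene, from 8.28 to 9.34 (1.06). These increases lay close together in size.

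The genes with the most peaks in the 3L stretch, 4 each, were nAChRalpha4, CG40228 and lncRNA:CR45174. nAChRalpha4, a subunit of the nicotinic acetylcholine receptor, differed by 0.91 at the promoter, 0.91 and 0.86 in introns and 0.98 in the 5' UTR. CG40228 differed by 0.74 at its promoter and by 0.84, 1.12 and 1.03 at its other peaks. lncRNA:CR45174 had differences of 0.89, 0.77, 0.48 and 0.46, the first of them in an intron of AGO3, a piRNA pathway gene. All 12 peaks of these genes were higher.

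In the 3R stretch the 18 innermost peaks, all higher, belonged to 5 genes. Parp1, the poly(ADP-ribose) polymerase gene, differed by 0.67 at the promoter and 1.23 upstream, Alg-2, a calcium-binding protein gene, by 0.69 to 0.90 over 3 peaks, and Tim17b, of the mitochondrial import channel, by 1.35. CG41128 and CG41099 had 6 peaks each, with differences from 0.89 to 1.29 and from 0.75 to 1.04, and 4 of the 6 peaks at each were intergenic. Only Tim17b was represented by a single peak.

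Farther out on 3R, 16 of 20 peaks were lower. The largest decreases were at lncRNA:CR44157, in an intron of smash, from 6.55 to 4.88 (-1.67), at laf, from 7.68 to 6.06 (-1.62), and at asRNA:CR43478, from 5.81 to 4.59 (-1.22). Gfat1, the first enzyme of the hexosamine pathway, went from 7.52 to 6.80 (-0.72). The 4 higher peaks among them were assigned to CG42402 (2.00), lncRNA:CR41601 (0.93), CG31523 (0.57) and spartin (1.68). The CG42402 peak, from 4.49 to 6.49, is the AT-repeat sequence shown above, with a GC content of 22.8% over the whole peak.

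Of 18 genes on the list known from pericentric heterochromatin, 14 lay in the stretches, and 7 of these had higher peaks (lt, cta, RpL5, RpL15, Dbp80, Set1 and Parp1), 1 a lower peak (Gfat1) and 6 none assigned to them (vtd, Snap25, AGO3, Myo81F, scro and spok). The 10 higher peaks had a median difference of 1.02, against 1.0 for all higher listed peaks. Over all protein-coding genes, 61.8% had a higher peak in the 3L stretch, 7.84% in the 3R stretch and 3.82% in the 2L stretch. RpL15, Dbp80 and Set1 lie on 3L, where every listed peak was higher, lt, cta and RpL5 on 2L, and Parp1 on 3R. The list was chosen with results of these data known, so its count is no result about heterochromatin genes, and what sets it was not tested.

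None of the 111 histone gene copies in the 2L stretch had a listed peak. Peaks that did not change are not listed, and the table does not tell an unchanged peak from one that was not called.

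Over genes, the stretches also differed in how much of their content was listed. Of 80 protein-coding genes on chromosome 4, 37 had a higher listed peak, 4 a lower one and 39 none, so 46.3% had a higher one. In the 3L stretch 21 of 34 did (61.8%), in the 3R stretch 8 of 102 (7.84%, 1 of them with both directions) and in the 2L stretch 19 of 497 (3.82%, 1 of them with both). Over all 13986 protein-coding genes, 2.07% had a higher and 7.98% a lower listed peak. Gene number is uneven within the stretches, since the last Mb of 2L holds 14 protein-coding genes and the Mb from 2 to 3 Mb of the end holds 189. Most of the 111 histone gene copies lie in that second interval, and they enter both its count and the 497 of the stretch.

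The positions of the peaks relative to genes differed by direction and stretch. Of the higher members, 115 of 145 were annotated as promoters, within 3 kb of a start (79.3%, 71.8 to 85.6), with 52 of 55 on chromosome 4, 23 of 27 on 2L, 28 of 41 on 3L and 12 of 22 on 3R. Of the lower members, 54 of 88 were (61.4%, 50.4 to 71.6), and 23 lay in introns. Lower peaks outside the stretches were promoters in 62.8% of cases, near the share of the lower members. Higher peaks outside the stretches were promoters in 80.8% of cases, near the 79.3% of the higher members. On the rest of the arms the share was 96.0% of 25 for 2L, 92.6% of 54 for 3L, 100% of 29 for 3R and 76.5% of 85 for 2R. In the stretches it was lower than on the rest of the same arms, at 85.2% on 2L, 68.3% on 3L and 54.5% on 3R. In the first 5 Mb of 2R it was 57.6%. The 22 intergenic higher members came from 3R (10), 3L (9) and 2L (3), and chromosome 4 had none.

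Base composition moved with direction. Median GC content was 34.4% (33.6 to 35.2) in the higher members and 45.2% (43.8 to 46.3) in the lower ones, against 38.9% and 45.4% in the other higher and lower peaks. The first 5 Mb of 2R, at 34.0%, were like the higher members, and without them the other higher peaks had 40.6%. By stretch the higher members had 32.8% on chromosome 4, 36.9% on 2L and 33.7% on 3L. The lower peaks of chromosome 4, at 41.6%, were also richer in GC than its higher peaks.

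Within classes of like GC content, the share of higher peaks among the members was above that of the other peaks in every class below 45%. The intervals count neighbouring peaks as separate items, so they describe these shares and are no test. Below 35% GC, 81 of 85 members were higher (95.3%, 88.4 to 98.7) and 81.6% (72.5 to 88.7) of the 98 other peaks, with intervals that overlapped slightly. Without proximal 2R the other peaks were at 69.5% (56.1 to 80.8). From 35 to 40% the shares were 78.0% (65.3 to 87.7) of 59 members and 28.7% (23.6 to 34.3) of 289 other peaks (23.1%, 18.2 to 28.7, without proximal 2R), and from 40 to 45% they were 38.5% (23.4 to 55.4) of 39 and 8.15% (6.36 to 10.2) of 810. At 45% or more they were 6.0% (1.25 to 16.5) of 50 and 4.85% (3.70 to 6.22) of 1196, with no difference visible at these numbers. These classes were set after the values were seen, and the part of base composition in the direction was not tested.

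**Figure D5:**
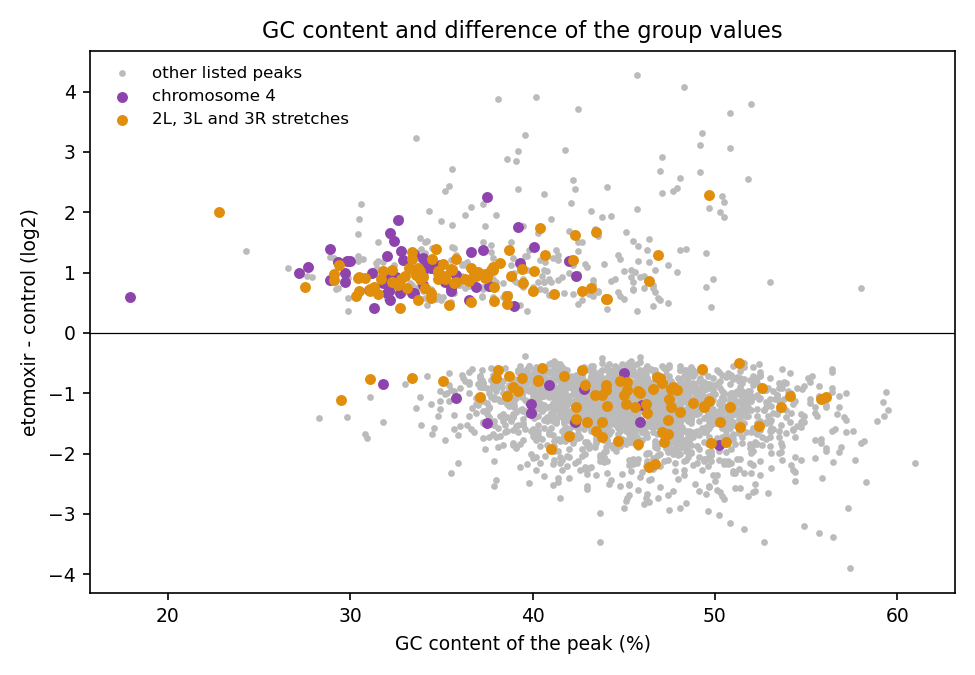
Difference of the group values (y axis, log2) against GC content of the peak (x axis, %) for listed peaks on chromosome 4 (purple), in the 2L, 3L and 3R stretches (orange) and elsewhere (grey). Higher members centre on 34.4% GC and lower members on 45.2%, and the grey points are mostly lower above 40%.

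Repeats and peak width moved with direction too. Annotated transposable elements overlapped 49 of 145 higher members (33.8%) and 4 of 88 lower ones (4.55%), against 21.6% and 1.33% of the other higher and lower peaks. On chromosome 4 they overlapped 26 of 55 higher peaks, and in the first 5 Mb of 2R 36.4% of the higher peaks. Without proximal 2R, 17.2% of the other higher peaks had such an overlap. Among the 180 members with no such overlap, 96 were higher (53.3%, 45.8 to 60.8), against 9.77% (8.59 to 11.1) of the 2303 other peaks with none. No filter on reads that align to several places is given in the sources used here. Median width was 1519 bases in the higher members, 2140 on 3L, and 1044 bases in the lower ones. Higher peaks in the first 5 Mb of 2R had 1884 bases, so none of these traits is particular to the 4 stretches. The part of repeats and width in the direction was not tested.

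The motifs behind the second set of sequences were counted on both strands. TATCGATA occurred in 21 of 145 higher members (14.5%, 9.19 to 21.3) and 3 of 88 lower ones (3.41%, 0.709 to 9.64), against 4.27% of all listed peaks. GAGAGAG occurred in 23 higher members (15.9%) and 25 lower ones (28.4%), against 24.1% of all listed peaks. In the central 300 bases, which have one length in every peak, TATCGATA was in 6 of 145 higher members (4.14%, 1.53 to 8.79) and 1 of 88 lower ones (1.14%), against 3.48% of the other higher peaks, 0.807% of the other lower peaks and 9.36% of 300-base promoter windows of protein-coding genes. GAGAGAG was in 3 higher (2.07%, 0.429 to 5.93) and 11 lower members (12.5%, 6.41 to 21.3), against 4.53% of the other higher peaks, 11.4% of the other lower peaks and 5.87% of promoter windows. For both motifs the intervals of the members took in the share of the other peaks of the same direction, and the intervals of TATCGATA in higher and lower members overlapped (0.0288 to 6.17 in the lower).

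The central TATCGATA matches in higher members were at Crk, MED26, eIF4G1 and PIP4K on chromosome 4 and at swm and Spf45 on 2L. The central GAGAGAG matches in lower members included brat, tsh at both peaks, tio, fok and CG42238 on 2L. The heat shock element, GAA-NN-TTC-NN-GAA, was in 4 higher members (CG3651, CG41099, CG42402 and CG32006) and in no lower member, against 1.90% of all listed peaks. A match is a string in the sequence and not a site shown to be bound.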

How the data were processed

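H3K18ac was measured by Cut&Run in 5 wing disc libraries. The authors trimmed reads with Trim Galore 0.6.3, aligned them to dm6 with Bowtie2 2.4.2, removed duplicates, called peaks with MACS2 2.1.1.20160309.6, tested the treatment groups against each other in DiffBind 2.10.0 and assigned peaks to genes with ChIPseeker 1.18.0 and an Ensembl annotation. Yeast spike-in DNA was added, and whether it scaled the values is not given in the sources used here. The deposited group values are log2 mean normalized read counts. The authors' fold changes and p-values were not used, and the deposited FDR was read only to establish the threshold of 0.05. The authors' signed distance to the nearest start, in bases, gave promoter distances. The study's reporting summary lists far more unique reads for 1 cultured control than for any other library, including both etomoxir libraries. Its total reads were within the range of the others. Without values per library the weight of this control could not be checked.

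From the group values, differences, counts, exact Clopper-Pearson intervals and medians were computed in Python 3.11.15 with numpy 2.4.6, pandas 2.3.3 and scipy 1.17.1, and tested on simulated data. Sequence, masked bases and transposable elements came from the RefSeq copy of dm6, and gene models from Ensembl release 115. Of 159 gene identifiers, 155 matched directly and 4 through their transcripts. Named genes were the 3 largest increases and decreases and the gene with most peaks in each stretch, and list genes with a peak. Others bound a run of peaks or lie within one and were named after their values were seen. The members, lists and motifs were chosen with earlier results of these data known. Alternatives were the position limit, size, level and width of the peaks, merging of neighbours within 1000 bases, one count per gene, promoter distance, chromosome 4 left out and, added after seeing the data, peaks in transposable elements left out. The sequence of the peak with the largest decrease on 2L is not reported here.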

Additional observations from a re-analysis of the deposited data

How the results depend on the processing

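Of 52 recomputed values, 36 stayed within the interval of the reported one. With a limit of 3 Mb the share of higher peaks was 68.5% over all stretches and 43.1% on 2L, 3R then held no listed peak, and with 7 Mb the shares were 44.9% over all, a change of the majority, 56.2% on 3L and 34.3% on 3R. Differences of at least 1 gave 54.4% over all and 18.8% on 2L. Peaks above the median overall value gave 70.7% over all and a median of -0.93 for lower members. Peaks up to the median width gave 47.4% over all, again a change of the majority. Without chromosome 4 the share was 54.2%, and 70.0% of higher members were promoters. Each gene counted once gave 91.3% on chromosome 4. Without peaks that overlap a transposable element, an alternative chosen after seeing the data, the share over all was 53.3%. A promoter limit of 1000 bases gave 64.8% of higher and 48.9% of lower members. The causes were not tested, apart from the position limit, which changes which peaks are counted.

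No paired analysis was possible because the table holds group means, which carry no replicate number. Leaving out single libraries was not run for the same reason. The intervals treat neighbouring peaks as separate items.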
